A study of Mus musculus with 16 samples.

Results

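Solute carriers are the largest group of membrane transporters in the mouse genome, and the genes described here are those whose symbol on the array begins with Slc and a number, with Slc2a1 and Slc32a1 left out. Of 28704 spots on the array, 288 carried such a symbol, and they belong to 182 of the 10225 genes named by a single symbol. Enough values for testing were present for 153 of the 182 genes, read by 225 spots. Brain RNA came from neonatal mice in 4 groups of 4 samples. Wild-type mice were C57BL/6j. Mice labelled Cx43 null, Cx43 heterozygous or Cx32 null were on a C57BL background, and they lack both copies of the connexin 43 gene, 1 copy of it, or the connexin 32 gene. Connexin 43 forms most gap junctions of astrocytes, and connexin 32 is found in those of oligodendrocytes. Each brain sample, labelled with Cy3, was hybridised on 1 array of spotted cDNA beside a Cy5 reference that was prepared a single time from adult tissues of male and female C57BL mice (aorta, brain, heart, kidney, liver, lung, ovary and testis, spleen and stomach). The titles of the Cx32 null samples leave out the word neonatal, which their descriptions give, and for wild-type replicates 3 and 4 only the Cy5 label of the reference is given. The labels give neither the exact age, nor whether a sample is 1 brain or a pool, nor the construct behind each null allele, and they do not say that the lines are littermates of the wild type.

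Solute carriers move amino acids, sugars, ions, metals, vitamins, nucleotides and metabolites across membranes, mostly by exchange or by coupling to a sodium or proton gradient. The Slc25 family sits in the inner mitochondrial membrane and links the matrix to the cytosol. Members of the Slc1 and Slc6 families clear transmitters from the synaptic cleft, and Slc2 and Slc16 members bring glucose and lactate into neurons and glia. Gap junctions between astrocytes pass the same small molecules from cell to cell, so the comparison asks which carrier transcripts differ in brain when a connexin is lost.

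Every value below is a log ratio of brain to reference, read as log2 and centred on the median of its array, or a difference of such levels. A level of 0 is therefore the centre of the array and not an equal amount in both samples. The labels name neither the log base nor the numerator. Brain over reference is the likely direction, since the median of 8 neuron genes (1.07 to 2.13) lay above that of 15 reference tissue genes (-5.47 to -2.88) on 16 of 16 arrays. Each array gave 21010 to 24819 values, and the precision is limited by how many arrays there are. Wild-type replicate 1 stood apart from its group (median correlation 0.70, against 0.85 to 0.87 for the other wild-type arrays), and Cx43 null replicate 1 correlated with the wild-type arrays (0.89) about as well as with its own group (0.87). In 5 of 48 print blocks at least 1 array did not follow the others (correlations down to -0.12), and these are called out of step. In blocks 13, 18 and 20 that array was wild-type replicate 4 (correlations -0.002, 0.39 and -0.12, with 515, 78 and 24 values). In block 41 it was wild-type replicate 3 (0.22). Where such an array has a value, it enters the wild-type mean that all 3 lines are set against. These blocks hold a spot of 22 of the 153 genes, which is said where such a gene is named. In block 25, 1 of them, the correlations were 0.47 to 0.66 on the wild-type arrays and 0.56 to 0.86 on those of the lines. There a difference from wild type cannot be told apart from spots out of step. In bulk RNA, fewer cells of a type and less RNA per cell cannot be told apart.

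In Cx43 null brain 21 of the 153 genes passed the limma test against wild type (adjusted p under 0.05), 6 of them higher and 15 lower. That is 13.7% of the genes, beside 10.8% of all 14292 transcripts tested. In Cx43 heterozygous brain 53 genes passed, 20 higher and 33 lower, which is 34.6% beside 31.0% of all transcripts. In Cx32 null brain 49 passed, 24 higher and 25 lower, which is 32% beside 27.3%. By direction, 4.37% of all transcripts were higher and 6.43% lower in Cx43 null, 13.5% and 17.5% in Cx43 heterozygous and 13.1% and 14.3% in Cx32 null brain. Of the genes that passed, 12, 46 and 42 had values that did not overlap the wild type at all, beside 6.72%, 25.3% and 22.1% of all transcripts. Whether or not they passed, 12.9%, 31.1% and 27.8% of all transcripts had no overlap. The shares called were thus near those of the whole array in each line, and the median log2 change of the 153 genes was -0.03, -0.00 and -0.01 in the 3 lines, beside 0.01, -0.02 and -0.03 over all transcripts. The 3 comparisons share the 4 wild-type arrays. In all, 69 genes passed in at least 1 line and 0 passed in opposite directions in 2 lines. The split into higher and lower depended on the scaling. With the values as deposited, not centred, the median over all transcripts was 0.155 in Cx43 heterozygous brain, and 32 solute carriers were higher and 24 lower there, and 32 and 19 in Cx32 null brain. With quantile scaling 3 were higher and 14 lower in Cx43 null brain. Of the genes that rose with centred values, 5 of 6 in Cx43 null, 19 of 20 in Cx43 heterozygous and 22 of 24 in Cx32 null brain had a wild-type mean below 0, and the wild-type arrays enter both numbers.

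Single arrays set the count for Cx43 null brain. No share of all transcripts is given beside the counts that follow, so they cannot be set against the whole array. When replicate 3, 4 or 2 of that line was left out, 2, 5 or 7 genes passed, and 33 when its replicate 1 was. Leaving out wild-type replicate 2 left 4 genes, replicate 1 left 9 and replicate 4 raised the number to 39. Replicates of other lines moved it too, to 12 (Cx32 null replicate 2 or Cx43 heterozygous replicate 4) or 13 (Cx43 heterozygous replicate 2). With wild-type and Cx43 null replicate 1 both left out it was 27, and with the out-of-step print blocks left out it was 18. Fitted on the 8 arrays of the 2 groups alone it was 0. The counts for the other lines were 49 and 46 without both of these replicates, and 50 and 45 without the out-of-step blocks. Leaving out wild-type replicate 2 gave 32 for Cx32 null. Only Slc48a1 and Slc35e4 of the 21 genes passed in Cx43 null brain without each of the 16 arrays in turn, so every other call named below for that line was lost without at least 1 array. Slc35e4 rests on 1 spot in an out-of-step block (block 41). It is not read when the out-of-step blocks are left out, and 1 of the 16 fits leaves out wild-type replicate 3, the array out of step there. In Cx43 heterozygous brain 32 of 53 calls, and in Cx32 null brain 26 of 49, held without each array in turn. The rest were lost without at least 1 array, and this is said below for only some of them. Among them were Slc49a4 (held in 9 of the 16 fits), Slc2a12 and Slc15a4 (11) and Slc44a3 (12) in Cx32 null brain. Slc27a5 in Cx43 heterozygous brain (11) was another. Members varied most among the wild-type arrays, where the median SD over the 153 genes was 0.37, against 0.26 in Cx43 null, 0.17 in Cx43 heterozygous and 0.20 in Cx32 null brain.

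The mitochondrial carriers were the solute carrier family with the most falls by count. Of the 22 Slc25 genes tested (25 on the array), 6 fell in Cx43 null, 10 in Cx43 heterozygous and 8 in Cx32 null brain, and 0 rose in any line with centred values, although 3 and 2 rose in the last 2 lines with the values as deposited and 2 and 1 with quantile scaling. These are 27.3%, 45.5% and 36.4% of the family, beside 6.43%, 17.5% and 14.3% of all transcripts called lower. Such shares are not particular to this family: of 16 vacuolar ATPase genes, 18.8%, 50.0% and 50.0% were lower. The median log2 change of the family was -0.38, -0.56 and -0.44, and 16, 17 and 16 of the 22 genes had a change below 0. By array, the median log2 ratio of the family was -0.27, -0.28, -0.17 and -0.03 in wild type and -0.37, -0.45, -0.53 and -0.59 in Cx43 null brain. It was -0.76, -0.55, -0.50 and -0.66 in Cx43 heterozygous and -0.10, -0.52, -0.51 and -0.68 in Cx32 null brain. Cx32 null replicate 1 thus lay among the wild-type arrays, and the other 11 arrays of the lines lay below all 4 of them. None of the family's tested spots lies in an out-of-step block. In Cx43 null brain 0 Slc25 genes fell when only the arrays of those 2 groups were fitted, and 0 when replicate 3 of the line was left out. Leaving out replicate 4 of the line or replicate 2 of the wild type left 1, leaving out replicate 2 of the line or replicate 1 of the wild type left 3, and leaving out replicate 1 of the line gave 9. Some markers of other cells moved in the same arrays. Of 3 microglial markers tested 2 fell in each line (median changes -0.97, -1.22 and -1.03). The third had changes of 0.66, 0.70 and 0.29 and rose in Cx43 heterozygous brain. Of 5 meningeal markers 2 fell in each line (-0.76, -0.49 and -0.66), and 1 more rose in Cx43 heterozygous brain. Median changes were 0.02, 0.42 and 0.28 for 3 endothelial markers and 0.04, 0.02 and -0.08 for 4 astrocyte and radial glia markers. For 8 neuron markers they were -0.18, -0.185 and -0.32. The median of the meningeal markers lay between 0.39 and 1.28 in wild type and between -0.44 and 0.51 elsewhere, and the part of these cells in the values of the family was not tested. Without wild-type and Cx43 null replicate 1 together, 9, 11 and 9 of the 22 genes fell and 0, 1 and 0 rose.

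**Figure D1:**
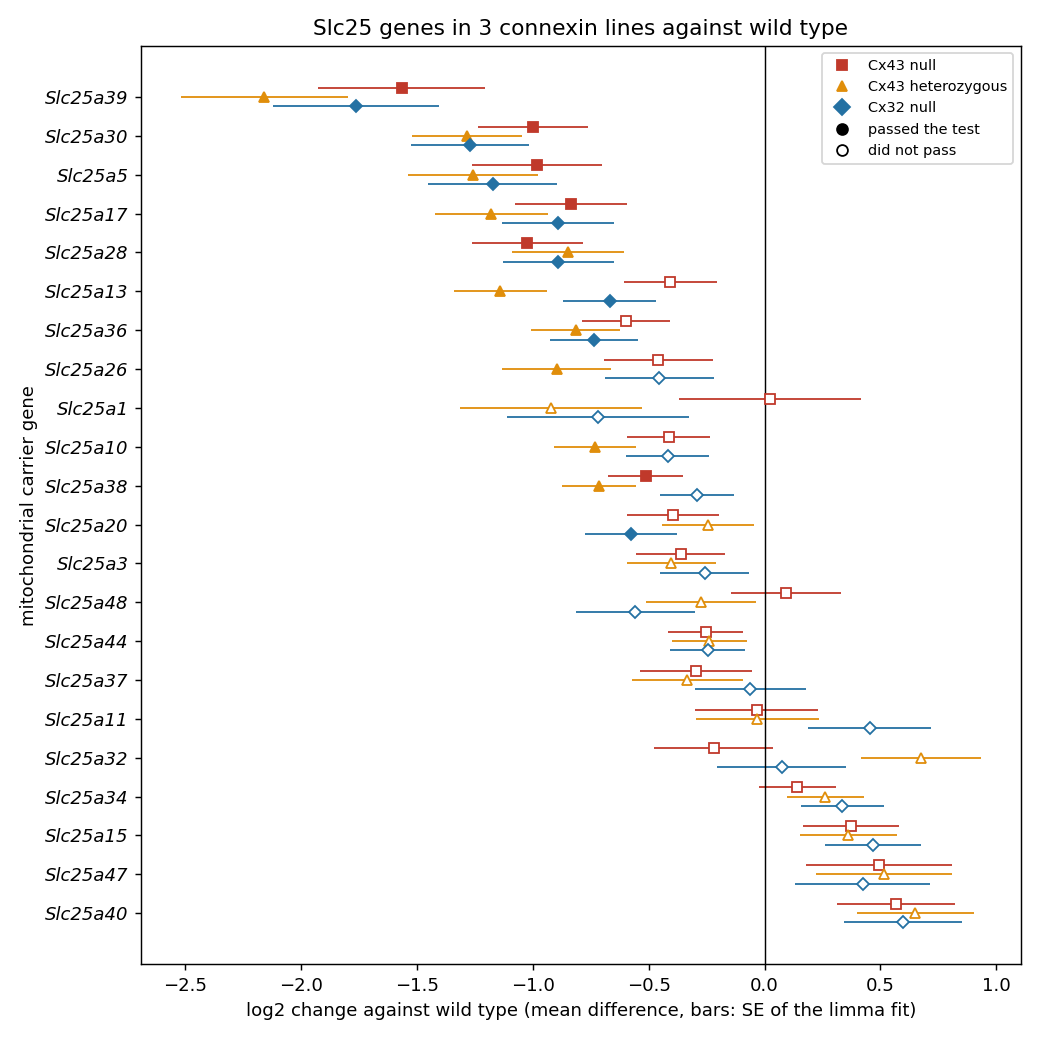
Log2 change against wild type (horizontal axis) of the 22 mitochondrial carrier genes tested (vertical axis) in Cx43 null, Cx43 heterozygous and Cx32 null brain, with the standard error of the limma fit as bars and filled symbols for changes that passed. With the centred values plotted, every filled symbol lies below 0, and Slc25a39 lies lowest in each line.

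Slc25a39, which takes glutathione into mitochondria, had the largest fall of the family. Its log2 ratio was 0.97, -0.17, -0.49 and -1.08 on the 4 wild-type arrays and -0.84, -1.75, -1.95 and -2.50 on the Cx43 null arrays. It was -2.42, -2.23, -2.43 and -2.33 in Cx43 heterozygous and -1.78, -2.06, -1.62 and -2.36 in Cx32 null brain. Cx43 null replicate 1 lay within the wild-type range, and every Cx43 heterozygous and Cx32 null array lay below it. The log2 change was -1.57 ± 0.36 (SE, adjusted p = 0.0181), -2.16 ± 0.36 (adjusted p = 5.65e-04) and -1.76 ± 0.36 (adjusted p = 0.00304), or 2.96-fold, 4.47-fold and 3.39-fold lower. The fall in Cx43 null brain did not pass without Cx43 null replicate 3 or 4. Its paralogue Slc25a40, also a glutathione carrier, had changes of 0.57, 0.65 and 0.60, none of which passed.

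Slc25a5 encodes the ADP/ATP translocase ANT2, which exchanges ATP made in the matrix for cytosolic ADP. It read 1.16, 0.15, -0.05 and -0.03 in wild type, -0.03, -0.45, -1.37 and -0.84 in Cx43 null, -1.08, -0.82, -0.73 and -1.16 in Cx43 heterozygous and -0.77, -0.69, -0.84 and -1.16 in Cx32 null brain. Wild-type replicate 1 was the highest of the 16 arrays, and only the Cx43 null values overlapped the wild-type ones. The log2 changes were -0.98 ± 0.28, -1.26 ± 0.28 and -1.17 ± 0.28 (SE), and both spots of the gene fell in each line. A cDNA spot can also bind transcripts of close relatives, and the ADP/ATP translocases are near copies of each other, so its values may not be those of Slc25a5 alone. Slc25a4, the heart and muscle isoform, was not analysed here. The other carriers of the energy chain moved less: the phosphate carrier Slc25a3 had changes of -0.36, -0.40 and -0.26, and the oxoglutarate carrier Slc25a11 of -0.03, -0.03 and 0.45, and none passed.

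Slc25a28, mitoferrin 2, imports iron into mitochondria outside the erythroid lineage. It read 1.60, 1.33 and 0.86 on the 3 wild-type arrays with a value and between 0.04 and 0.85 on all 12 arrays of the lines, so the groups did not overlap. It fell by 1.02, 0.85 and 0.89 on the log2 scale in Cx43 null, Cx43 heterozygous and Cx32 null brain (adjusted p = 0.0202, 0.0144 and 0.0138), and both of its spots fell in each line. The spot with the higher wild-type mean (1.71, against 0.82) had a value on only 3 arrays in each of the last 2 lines, and the other spot on 4. By spot, the changes were -0.79 and -0.68 in Cx43 heterozygous and -0.80 and -0.76 in Cx32 null brain. The falls of the averaged values there are thus larger than those of either spot, and the gap to the wild type is affected too. Slc25a37, mitoferrin 1, the erythroid isoform, had changes of -0.30, -0.33 and -0.06, none of which passed. Slc25a38, which brings in glycine for haem synthesis, fell by 0.51 in Cx43 null and by 0.71 in Cx43 heterozygous brain and had a change of -0.29 in Cx32 null brain that did not pass.

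Slc25a30, a carrier first described in kidney, read 1.84, 2.00 and 1.46 on 3 wild-type arrays and 1.31, 0.93, 0.72 and 0.13 in Cx43 null brain. It read 0.43, 0.60, 0.31 and 0.61 in Cx43 heterozygous brain and 0.45, 0.47 and 0.58 on 3 Cx32 null arrays. It fell by 1.00 ± 0.24, 1.28 ± 0.24 and 1.27 ± 0.25 (SE) with no overlap in any line. Slc25a17, a coenzyme A carrier of peroxisomes rather than mitochondria, fell by 0.83, 1.18 and 0.89 on the log2 scale, from a wild-type mean of 2.07 ± 0.34 (SD, n = 4). The aspartate-glutamate carrier Slc25a13 fell by 1.14 in Cx43 heterozygous and by 0.67 in Cx32 null brain, but its 3 spots differed widely, with changes between -2.96 and -0.05 in Cx43 heterozygous and between -2.06 and 0.07 in Cx32 null brain. The pyrimidine nucleotide carrier Slc25a36 fell by 0.82 and 0.74 in these lines, and the S-adenosylmethionine carrier Slc25a26 by 0.90 and the dicarboxylate carrier Slc25a10 by 0.73 in Cx43 heterozygous brain. The 2 spots of Slc25a10 differed there (-1.25 and -0.21). The carnitine-acylcarnitine carrier Slc25a20, which feeds fatty acid oxidation, fell by 0.58 in Cx32 null brain.

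The promoters of the 5 Slc25 genes that were lower in all 3 lines are shown because these genes moved together. Each line gives the 250 bases before the RefSeq gene start (GRCm38.p6), 5′ to 3′ on the gene's strand. Capitals mark matches on either strand to GGGCGG (the GC box of Sp factors), CCAAT (the CCAAT box), CCGGAAG (ETS factors) or TNAAGGTCA (oestrogen-related receptors), and no 2 motifs overlap in these sequences.
Slc25a39 promoter: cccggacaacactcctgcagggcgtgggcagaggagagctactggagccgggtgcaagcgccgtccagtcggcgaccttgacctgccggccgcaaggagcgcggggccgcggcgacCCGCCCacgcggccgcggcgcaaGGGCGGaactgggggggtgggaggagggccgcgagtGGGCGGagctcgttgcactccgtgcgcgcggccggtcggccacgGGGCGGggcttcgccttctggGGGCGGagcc
Slc25a30 promoter: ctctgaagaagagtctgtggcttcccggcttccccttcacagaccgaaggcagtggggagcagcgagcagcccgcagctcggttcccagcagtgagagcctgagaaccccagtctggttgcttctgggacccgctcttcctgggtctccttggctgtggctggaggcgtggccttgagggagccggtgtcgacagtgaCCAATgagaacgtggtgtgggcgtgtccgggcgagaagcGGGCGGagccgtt
Slc25a5 promoter: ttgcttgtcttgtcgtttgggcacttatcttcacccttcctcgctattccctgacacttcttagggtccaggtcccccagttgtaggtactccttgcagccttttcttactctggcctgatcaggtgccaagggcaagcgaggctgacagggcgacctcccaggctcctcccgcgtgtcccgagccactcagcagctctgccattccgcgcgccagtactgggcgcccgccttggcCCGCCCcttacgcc
Slc25a28 promoter: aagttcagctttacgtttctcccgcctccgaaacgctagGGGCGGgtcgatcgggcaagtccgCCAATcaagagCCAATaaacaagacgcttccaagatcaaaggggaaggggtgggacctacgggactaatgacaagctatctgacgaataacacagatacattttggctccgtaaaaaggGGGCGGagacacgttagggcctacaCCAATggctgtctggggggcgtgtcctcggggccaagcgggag
Slc25a17 promoter: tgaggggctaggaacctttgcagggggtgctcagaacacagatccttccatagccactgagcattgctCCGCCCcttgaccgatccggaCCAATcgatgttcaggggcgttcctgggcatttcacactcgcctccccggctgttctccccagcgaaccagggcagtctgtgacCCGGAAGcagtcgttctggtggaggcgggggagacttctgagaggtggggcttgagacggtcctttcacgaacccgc

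The Slc25a39 sequence covers chr11:102407518-102407767 on the minus strand, Slc25a30 chr14:75787038-75787287 on the minus strand and Slc25a5 chrX:36795347-36795596 on the plus strand. Slc25a28 covers chr19:43674882-43675131 and Slc25a17 chr15:81360766-81361015, both on the minus strand. All 5 held a GC box, 5 of them in Slc25a39 alone, where 1 lies 10 to 5 bases before the start. CCAAT was present in 3 of the 5, and 3 times in Slc25a28. CCGGAAG was present in Slc25a17 only, and TNAAGGTCA in none. Among the 27025 genes of the promoter table, 35.4% held a GC box, 37.5% CCAAT, 7.83% CCGGAAG and 1.3% TNAAGGTCA. Among the 21 Slc25 genes on the array with an entry, 17 held a GC box, 12 CCAAT, 4 CCGGAAG and 0 TNAAGGTCA. The GC box was also frequent among the 146 solute carriers with an entry, of which 97 (66.4%) held it, while 53 held CCAAT (36.3%) and 18 CCGGAAG (12.3%). The Slc25 promoters are also richer in G and C (median 61.2%, against 52.4% over all genes). An entry was present for 146 of the 182 genes.

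The largest fall of any solute carrier in Cx43 null brain was that of Slc48a1, a haem transporter of endosomes and lysosomes, read by 1 spot outside the out-of-step blocks. It read 1.60, 2.07, 2.18 and 1.35 on the wild-type arrays, 0.05, -0.38 and 0.20 on 3 Cx43 null arrays, -0.02, 0.04, -0.09 and -0.14 in Cx43 heterozygous and 0.48, 0.15, 0.03 and -0.12 in Cx32 null brain. All wild-type arrays lay above all arrays of the lines, by a wide gap. The log2 change was -1.84 ± 0.22 (SE, adjusted p = 7.19e-04), -1.85 ± 0.21 (adjusted p = 6.4e-05) and -1.66 ± 0.21 (adjusted p = 2.31e-04), or 3.58-fold, 3.61-fold and 3.17-fold lower. It passed without each of the 16 arrays in turn in all 3 lines. For Cx43 null brain alone, 1 of the other alternatives ended the call, the fit on the arrays of those 2 groups (adjusted p = 0.0773).

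**Figure D2:**
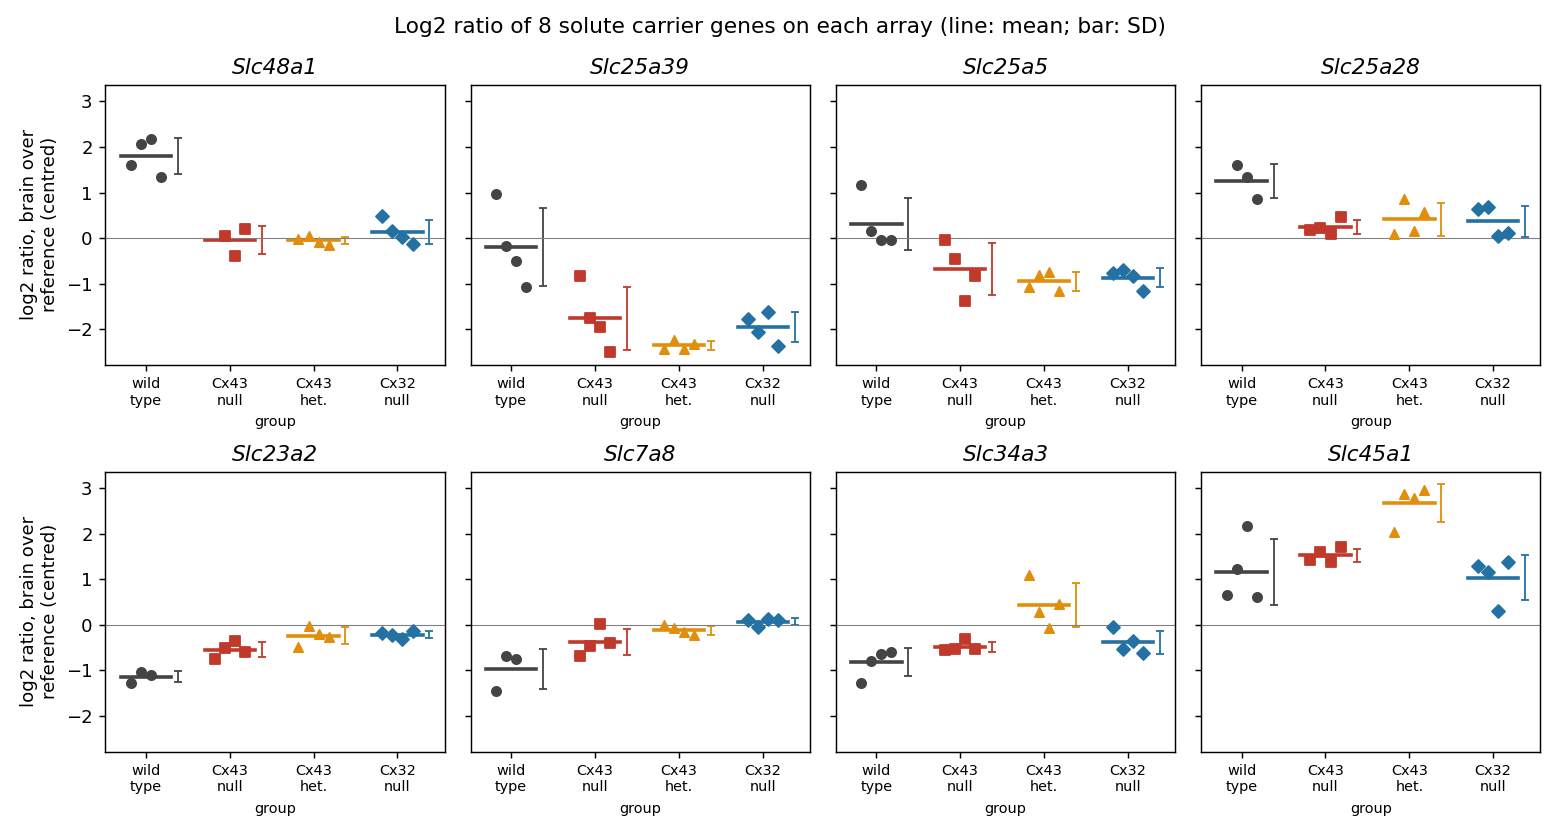
Log2 ratio of brain over reference (vertical axis, centred on each array's median) of 8 solute carrier genes on each array of the 4 groups (horizontal axis), with the mean of the group as a line and its SD as a bar. In the panel of Slc48a1 the wild-type points lie between 1.35 and 2.18 and all others below 0.50, and in the panel of Slc45a1 the Cx43 heterozygous points lie between 2.05 and 2.97.

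Carriers of vitamins, nucleosides, fatty acids and choline moved in both directions. Of the 17 tested, 1 rose and 1 fell in Cx43 null, 3 and 4 in Cx43 heterozygous and 2 and 3 in Cx32 null brain. Slc23a2, the sodium-coupled vitamin C carrier of neurons, read -1.28, -1.02 and -1.09 on 3 wild-type arrays and -0.75, -0.50, -0.34 and -0.59 in Cx43 null brain. It read -0.47, -0.03, -0.19 and -0.27 in Cx43 heterozygous and -0.18, -0.23, -0.32 and -0.13 in Cx32 null brain. It rose by 0.59, 0.89 and 0.92 on the log2 scale, with no overlap in any line, and the rise in Cx43 null brain (adjusted p = 0.0387) did not pass without any 1 of 8 arrays. Slc46a2 rose by 0.68 and 0.76 in Cx43 heterozygous and Cx32 null brain, on 1 spot in block 25, where the wild-type arrays themselves were out of step. Slc27a5, a fatty acid and bile acid CoA ligase of liver, fell by 0.93 in Cx43 heterozygous brain, and its 2 spots differed (-1.19 and -0.14). Of 11 liver markers 9 were tested, of which 3, 4 and 2 fell in the 3 lines, and their part was not tested. Their median lay between -3.58 and -2.88 in wild type and between -5.46 and -3.67 elsewhere. Slc44a3, a choline carrier-like protein, fell by 1.10 in Cx32 null brain.

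Amino acid and transmitter carriers were split as well. Of the 25 tested (30 on the array), 2 rose and 2 fell in Cx43 null, 4 and 5 in Cx43 heterozygous and 4 and 4 in Cx32 null brain, and the family's median change was -0.05, -0.00 and 0.07. Among carriers of neutral amino acids, Slc7a8, the LAT2 exchanger, read -1.46, -0.68 and -0.76 on 3 wild-type arrays, -0.01, -0.06, -0.16 and -0.22 in Cx43 heterozygous and 0.11, -0.05, 0.13 and 0.10 in Cx32 null brain. It rose by 0.85 and 1.04 in these lines and had a change of 0.59 in Cx43 null brain that did not pass (adjusted p = 0.0715). Slc43a2, the LAT4 carrier of branched-chain amino acids and phenylalanine, rose by 0.76, 0.67 and 0.88 in the 3 lines. Slc6a18, a kidney carrier of neutral amino acids, rose by 0.85 in Cx43 heterozygous brain. Slc38a9, which senses arginine at the lysosome, rose by 0.80 in Cx43 null and 0.73 in Cx32 null brain. Slc1a5, the ASCT2 carrier of glutamine and alanine, fell by 0.67, 0.96 and 0.58, and the adjusted p for Cx43 null was 0.0498.

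Slc6a6, the taurine carrier, was the amino acid carrier with the largest fall in Cx43 null brain. It read 1.55, 2.56, 2.72 and 2.24 in wild type, 2.11, 1.06, 0.75 and 1.18 in Cx43 null, 1.07, 0.85, 1.01 and 1.07 in Cx43 heterozygous and 1.45, 1.31, 1.37 and 1.48 in Cx32 null brain. Replicate 1 of the Cx43 null group lay inside the wild-type range, and the other 11 arrays of the lines lay below it. However, its 2 spots, with wild-type means of 1.90 and 2.88, each had a value on 3 of the 4 wild-type arrays, and not on the same 3. Some wild-type values are thus those of 1 spot alone, which bears on this range and on the changes. By spot, the changes in Cx43 null brain were -1.40 and -0.84. As the mean of its spots, Slc6a6 fell by 0.99 ± 0.26, 1.27 ± 0.26 and 0.87 ± 0.26 (SE). Both spots fell in each line, 1 of them in an out-of-step block. Slc38a3, the glutamine carrier of astrocytes, read -0.08, -0.15 and -0.47 on 3 wild-type arrays, -0.17, -1.28, -1.12 and -1.50 in Cx43 null and between -2.11 and -1.72 on the 7 arrays of the other lines with a value. It fell by 1.79 and 1.64 in Cx43 heterozygous and Cx32 null brain, on 1 spot in an out-of-step block, and its change of -0.78 in Cx43 null brain did not pass. The creatine carrier Slc6a8 fell by 0.63 and 0.67 in the same lines, with 1 of its 3 tested spots in an out-of-step block (block 25). Its spots differed, with changes between -1.26 and -0.10 in Cx43 heterozygous and between -1.27 and -0.15 in Cx32 null brain.

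Slc1a3, the GLAST glutamate carrier of astrocytes and radial glia, passed in none of the lines (changes of -0.81, -0.94 and -0.83). Its wild-type values were 4.09, 1.58, 1.66 and 1.10, and those of the 12 arrays of the lines ran from 1.00 to 1.52, and without replicate 1 the changes were -0.15, -0.28 and -0.17. Of 10 astrocyte and radial glia markers 4 were tested, of which 0, 2 and 1 fell and 0, 1 and 0 rose, and the median of the 4 lay between -0.25 and 0.95 in wild type and between -0.41 and 0.36 elsewhere. Their part in the values of Slc1a3 and Slc38a3 was not tested. Slc1a2, the GLT-1 carrier, had too few values to be tested, and Slc17a6, Slc17a7 and Slc12a5 were not analysed here. Slc12a2 was on spots that list 2 genes and was not read.

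Ion exchangers and cotransporters had 0 rises and 2 falls of 17 tested in Cx43 null, and 3 and 3 in each of the other lines. Slc4a2, the AE2 chloride-bicarbonate exchanger, read 0.52, 0.14 and 0.17 on 3 wild-type arrays, -0.18, -0.50, -0.91 and -1.22 in Cx43 null, -1.77, -1.56, -1.50 and -1.40 in Cx43 heterozygous and -0.41, -0.85, -1.17 and -1.29 in Cx32 null brain. No line overlapped the wild type. It fell by 0.98, 1.83 and 1.21, on 1 spot in an out-of-step block. Slc4a1, the band 3 anion exchanger of red blood cells, fell by 1.21 and 1.10 in Cx43 heterozygous and Cx32 null brain, with both tested spots in an out-of-step block. Of 6 red blood cell markers 2 were tested, and 0, 1 and 1 of them fell in the 3 lines, with median changes of -0.66, -1.08 and -0.71. The median of the pair lay between -1.55 and -0.74 in wild type and between -2.83 and -1.16 elsewhere. Their part in the fall of Slc4a1 was not tested.

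Among phosphate carriers, Slc34a3, a sodium-phosphate cotransporter of kidney, read -1.27, -0.78, -0.64 and -0.60 in wild type, -0.56, -0.53, -0.31 and -0.52 in Cx43 null, 1.09, 0.27, -0.06 and 0.46 in Cx43 heterozygous and -0.06, -0.53, -0.35 and -0.61 in Cx32 null brain. Only the Cx43 heterozygous arrays stood clear of the wild type by a wide gap, and it rose there by 1.26 ± 0.22 (SE, adjusted p = 8.86e-04). Its changes of 0.34 and 0.44 in the other lines did not pass. Slc34a2, the phosphate carrier of lung and gut, fell by 0.95 and 0.79 in Cx43 heterozygous and Cx32 null brain. Slc20a1, the PiT1 phosphate carrier, had changes of -0.05, 0.10 and 0.05, none of which passed. Slc20a2, the PiT2 carrier, fell by 0.61 in Cx43 null brain, with an adjusted p of 0.0492 and 1 of its 2 spots in an out-of-step block. Those 2 spots differed, with changes of -1.17 and -0.05. The sodium-calcium exchanger Slc8a1 rose by 0.78 in Cx32 null brain.

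Metal ion carriers had 0 rises and 1 fall of 17 tested in Cx43 null, 3 and 3 in Cx43 heterozygous and 4 and 2 in Cx32 null brain. Slc30a3, the ZnT3 carrier that fills synaptic vesicles with zinc, read 0.42, -0.05 and -0.71 on 3 wild-type arrays and -0.60, -0.68, -1.07 and -1.18 in Cx43 null brain. It read -1.70, -1.18, -1.66 and -1.48 in Cx43 heterozygous and from -1.36 to -0.99 in Cx32 null brain. It fell by 1.39 and 1.04 in the last 2 lines, and its change of -0.77 in Cx43 null brain did not pass (adjusted p = 0.0518). Slc30a9, a zinc carrier of mitochondria, fell by 0.62, 0.81 and 0.63, but 1 of its 3 spots had a change above 0 in each line. The copper carrier Slc31a2 fell by 0.96 in Cx43 heterozygous brain. Slc39a13, a zinc carrier of the secretory pathway, rose by 0.83 and 0.82 in Cx43 heterozygous and Cx32 null brain.

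Slc40a1 encodes ferroportin, the iron exporter. It read -0.93, -1.73, -2.02 and -1.71 in wild type, -2.02, -1.29, -1.73 and -1.46 in Cx43 null, -1.10, -1.25, -1.15 and -1.08 in Cx43 heterozygous and -0.77, -0.68, -0.69 and -0.70 in Cx32 null brain. It rose by 0.89 in Cx32 null brain, where all 4 arrays lay above the wild type. Ferroportin and Slc48a1 both serve macrophages and microglia. Of 6 microglial markers 3 were tested, of which 2 fell in each line and 1 rose in Cx43 heterozygous brain, with median changes of -0.97, -1.22 and -1.03. The median of the 3 markers lay between -0.79 and -0.23 in wild type, -1.89 and -0.85 in Cx43 null, -1.81 and -1.46 in Cx43 heterozygous and -1.81 and -0.93 in Cx32 null brain, so no array of the lines reached the wild-type range. Their part in these values was not tested.

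Sugar carriers had 0 calls of 12 tested in limma in Cx43 null brain (3 at an unadjusted p under 0.05), 2 rises and 2 falls in Cx43 heterozygous and 2 rises and 1 fall in Cx32 null brain. Slc45a1, a proton-coupled sugar carrier of brain, read 0.65, 1.23, 2.17 and 0.60 in wild type, 1.43, 1.59, 1.38 and 1.71 in Cx43 null, 2.05, 2.87, 2.78 and 2.97 in Cx43 heterozygous and 1.30, 1.15, 0.30 and 1.38 in Cx32 null brain. It rose by 1.50 ± 0.31 (SE, adjusted p = 0.00251) in Cx43 heterozygous brain, 2.83-fold, although wild-type replicate 3 lay within the range of that line. Slc2a12 rose by 0.78 and 0.59 in Cx43 heterozygous and Cx32 null brain. Slc2a4, the insulin-responsive GLUT4, read -0.22, -0.68, -0.91 and -0.52 in wild type and -2.57, -1.77, -2.23 and -1.22 in Cx43 heterozygous brain, where it fell by 1.37. Slc2a3, the neuronal GLUT3, fell by 1.23 and 1.01 in Cx43 heterozygous and Cx32 null brain, on 1 spot in an out-of-step block (block 13). Its wild-type mean includes the array out of step there. Of 13 neuron markers 8 were tested. Among them 0, 3 and 3 fell in the 3 lines and 1 rose in Cx43 heterozygous brain, their median lay between 1.07 and 2.13 in wild type and between 1.18 and 1.78 elsewhere, and their part in these falls was not tested.

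Of the 4 monocarboxylate carriers tested, Slc16a5 rose by 0.66 in Cx43 heterozygous and 0.82 in Cx32 null brain, and no other passed. The call of Slc16a5 in Cx43 heterozygous brain (limma, adjusted p = 0.0489) held in 2 of the 16 fits that left out 1 array. Slc16a1, the MCT1 lactate carrier, had changes of -0.88, -0.67 and -0.85, and none passed. Its wild-type values were 1.67, -1.66, -1.24 and -1.83, so that replicate 1 lay more than 2 log2 units above every other array, and without it the changes in Cx43 null and Cx43 heterozygous brain were -0.07 and 0.14.

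Nucleotide sugar carriers, which supply the Golgi apparatus and endoplasmic reticulum, had 1 rise and 1 fall of 17 tested in Cx43 null, 2 and 1 in Cx43 heterozygous and 4 and 1 in Cx32 null brain. Slc35a2, the UDP-galactose carrier, read -0.07, 0.25, 0.54 and 0.25 in wild type and 0.88, 1.36, 0.92 and 0.90 in Cx43 null brain, where it rose by 0.77 (adjusted p = 0.016). It rose by 0.47 in Cx32 null brain. Slc35c2, which takes part in fucosylation of Notch, rose by 0.92 and 0.97 in Cx43 heterozygous and Cx32 null brain, and wild-type replicate 1 (-1.76) lay far below the other wild-type arrays. Slc35e4 fell by 1.27 and 1.17 in Cx43 null and Cx32 null brain, on 1 spot in an out-of-step block (block 41). Its wild-type mean includes the array out of step there. Slc35b2, which carries the sulphate donor PAPS, fell by 0.52 in Cx43 heterozygous brain, and Slc35a4 rose there by 0.64. The call of Slc35b2 (limma, adjusted p = 0.0474) held in 5 of the 16 fits that left out 1 array.

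Carriers of organic ions, bile acids, dicarboxylates and peptides had 1 rise and 0 falls of 17 tested in Cx43 null, 1 and 2 in Cx43 heterozygous and 3 and 1 in Cx32 null brain. Slc17a2, a member of the sodium-phosphate and organic anion branch, rose by 0.62 and 0.55 in Cx43 null and Cx32 null brain. Slc22a15 rose by 0.61 and 0.76 in Cx43 heterozygous and Cx32 null brain, and the lysosomal peptide and histidine carrier Slc15a4 rose by 0.71 in Cx32 null brain. Slc22a17, a receptor for lipocalin 2, fell by 0.60 in Cx43 heterozygous brain (limma, adjusted p = 0.0434). That call held in 7 of the 16 fits that left out 1 array. Slc22a5, the carnitine carrier, fell by 0.45 and 0.43 in Cx43 heterozygous and Cx32 null brain as the mean of 2 spots of opposite direction, and its more complete spot had changes of 0.41 and 0.24 that did not pass. No direction can be given for this gene.

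Of the remaining genes, Slc66a1, which exports lysine and arginine from lysosomes, rose by 0.62, 0.64 and 0.62, and both spots were higher in each line. Slc49a4, a lysosomal membrane protein, fell by 1.03 and 0.90 in Cx43 heterozygous and Cx32 null brain. Slc9a3r1, a scaffold that carries a solute carrier symbol but moves no solute, fell by 0.86, 0.99 and 1.07. Its relative Slc9a3r2 fell by 0.63 and 0.52 in Cx43 null and Cx43 heterozygous brain. Altogether 14 of the 153 genes passed in all 3 lines, 3 higher (Slc23a2, Slc43a2 and Slc66a1) and 11 lower, and 5 of the 11 are Slc25 genes. Over all transcripts, 2.99% were higher and 5.46% lower in all 3 lines.

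Many of these values rest on few spots. Of the 153 genes 100 were read by 1 spot. Of the 53 with several spots, 37 had spots of opposite sign in at least 1 line. Among the genes that passed, 1 of 7 with several spots was split in this way in Cx43 null, 3 of 18 in Cx43 heterozygous and 4 of 14 in Cx32 null brain.

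**Figure D3:**
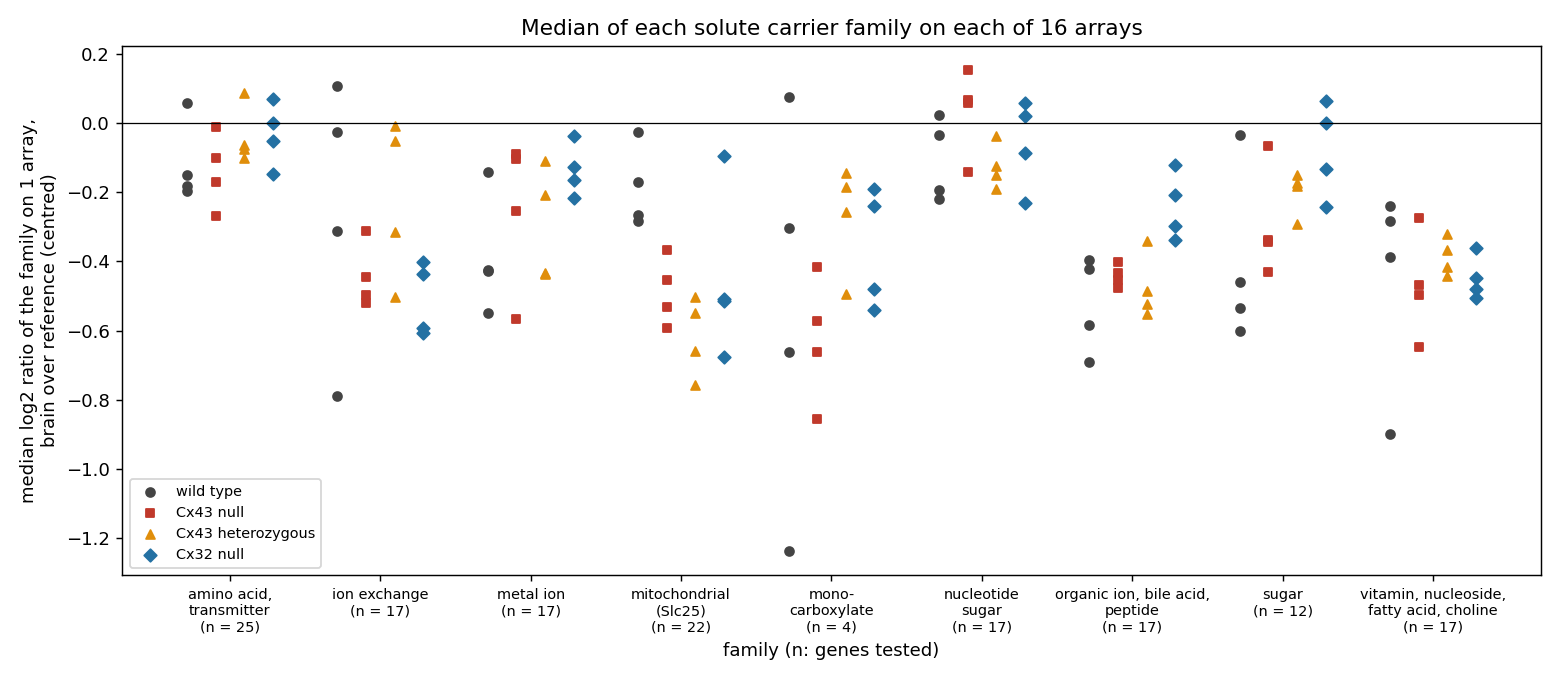
Median log2 ratio of brain over reference (vertical axis, each array centred on its median) of each solute carrier family (horizontal axis, with the number of genes tested) on each of the 16 arrays. Points are arrays, coloured by group. In the mitochondrial family 11 of the 12 arrays of the lines lie below the 4 wild-type arrays.

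Few solute carriers passed the test between lines. The fit takes 1 spread per transcript from all 4 groups, so the larger spread of the wild-type arrays enters these tests too. Few calls thus do not show that the lines are alike. Between Cx43 null and Cx43 heterozygous brain 4 of 153 genes (2.61%) passed, beside 1.46% of all transcripts, 0.77% higher and 0.686% lower. At an unadjusted p under 0.05 in limma there were 29 genes. For counts at an unadjusted p, no share of all transcripts is given in this text, so they cannot be set against the whole array. Slc24a5, a sodium-calcium exchanger of pigment cells, was higher in Cx43 null brain by 1.18 ± 0.27 (SE, adjusted p = 0.0418). It read 2.02, 2.24, 1.79 and 2.35 there and 1.06, 0.82, 1.09 and 0.73 in Cx43 heterozygous brain, with the wild type between them at 1.78, 1.75, 1.42 and 1.48. Slc7a11, the cystine-glutamate exchanger of astrocytes, was lower in Cx43 null brain by 1.15 (log2 difference -1.15 ± 0.24 SE, adjusted p = 0.0287). It read -0.14, 0.11, -0.80 and 0.23 there and 0.83, 1.06 and 1.10 on 3 Cx43 heterozygous arrays. Slc34a3 (difference -0.92, adjusted p = 0.049) and Slc38a3 (difference 1.01, adjusted p = 0.0494, in an out-of-step block) were at the edge of the threshold. The count of 4 was 1 with the replicate number as a block, 2 without replicate 1 of both the wild-type and Cx43 null groups, 0 without Cx43 heterozygous replicate 1 or 2 or Cx43 null replicate 1 or 3, 1 or 2 without 8 of the other arrays, and 8 without wild-type replicate 1. None of the 4 differences passed without each array in turn.

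Between Cx43 heterozygous and Cx32 null brain 1 of 153 genes passed, beside 1.23% of all transcripts, 0.903% higher and 0.329% lower (14.0% with no overlap). At an unadjusted p under 0.05 there were 23 genes. Slc45a1 was higher in Cx43 heterozygous brain by 1.63 ± 0.31 (SE, adjusted p = 0.0122), 3.1-fold, with no overlap. This difference passed without each array in turn, and the count was 3 without wild-type replicate 1 and 2 without Cx43 heterozygous replicate 3 or 4. Between Cx43 null and Cx32 null brain 0 of 153 genes passed in limma, beside 0.084% of all transcripts (0.07% higher, 0.014% lower and 7.88% with no overlap), and 13 had an unadjusted p under 0.05. That count was 2 without wild-type replicate 1 and 1 without Cx43 null replicate 4.

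The other genes of membrane transport give the setting for these counts. Of 16 vacuolar ATPase genes, which acidify lysosomes and synaptic vesicles, 3, 8 and 8 fell and 1 rose in each of the 3 lines, with median changes of -0.38, -0.65 and -0.69. Of 21 genes of mitochondrial channels and protein import, 1, 5 and 5 fell and 1, 1 and 0 rose, with medians of -0.27, -0.27 and -0.18. Among 22 ABC transporters 2, 5 and 3 fell and 2, 3 and 4 rose. Among 19 ion-pumping P-type ATPases 1, 4 and 2 fell and 0, 3 and 2 rose. Of 4 aquaporins 1 fell in each line.

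Against the adult tissue reference, most solute carriers lay off the array's centre in neonatal brain. Of the 153 genes, 44 were higher and 89 lower than the centre over the 4 groups, 86.9% in all, beside 82.1% of all transcripts (39.7% higher and 42.4% lower). The median of the 153 genes was -0.31, beside -0.02 over all transcripts. On every array measured, 21 genes lay above 0 and 40 below. The test takes 0 as fixed, and leaves out the spread of the reference, which was made once, and any dye effect of a gene, since dyes were not swapped. In the wild-type arrays alone 83 genes passed.

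**Figure D4:**
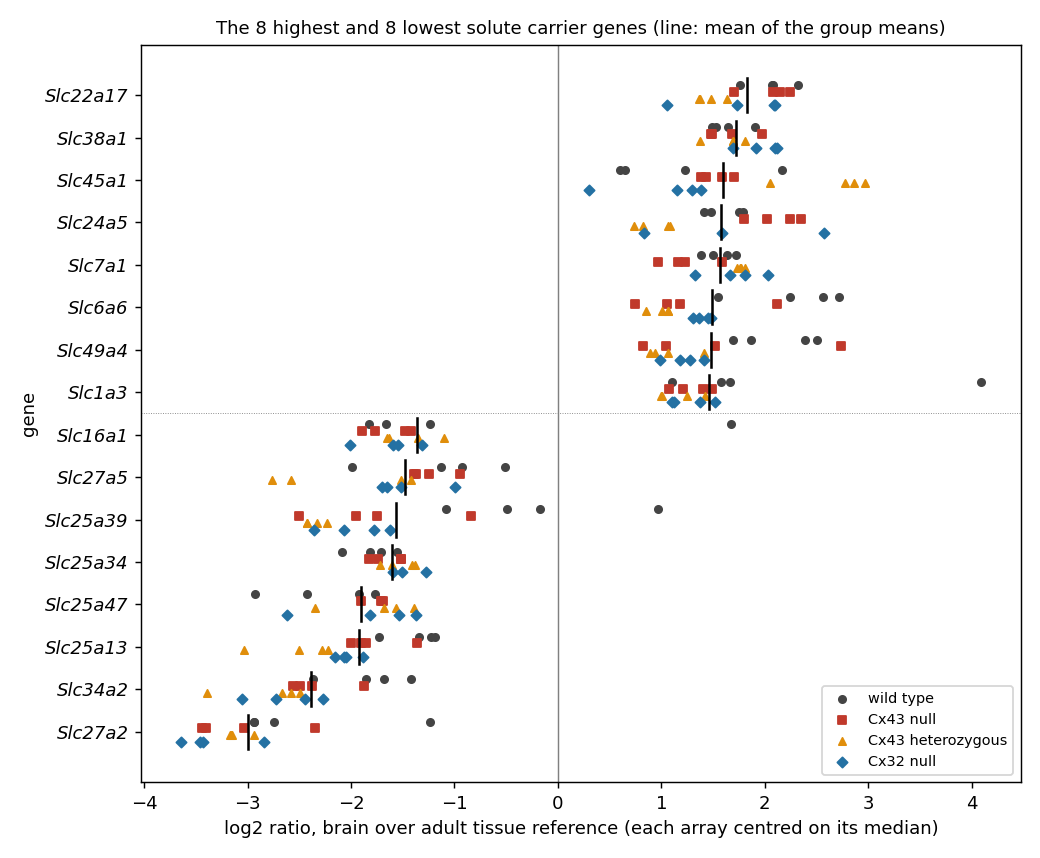
Log2 ratio of brain over the adult tissue reference (horizontal axis, each array centred on its median) of the 8 highest and the 8 lowest solute carrier genes (vertical axis) on each of the 16 arrays, with the mean of the 4 group means as a black line. Slc22a17 leads at 1.83 and Slc27a2 is lowest at -2.99, and wild-type replicate 1 lies apart for Slc1a3, Slc16a1 and Slc27a2.

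Slc22a17, the lipocalin 2 receptor, had the highest mean at 1.83 ± 0.08 (SE), or 3.55-fold, and ran from 1.06 to 2.32 over the 16 arrays with a median of 1.92. Slc38a1, the SNAT1 glutamine carrier of neurons, followed at 1.73 (range 1.38 to 2.12), then Slc45a1 at 1.60, Slc24a5 at 1.58 and Slc7a1, the CAT-1 carrier of cationic amino acids, at 1.57 (range 0.97 to 2.04). Slc6a6 (1.49), Slc49a4 (1.48) and Slc1a3 (1.46) completed the 8 highest. The ranges over the arrays of neighbours in this order overlapped. The median of Slc1a3 was 1.31, below its mean, because of the wild-type value of 4.09.

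The lowest gene was Slc27a2, a very long-chain fatty acid CoA ligase of liver and kidney, with a mean of -2.99 ± 0.12 (SE), 7.95-fold below the centre, and a range from -3.64 to -1.24 with a median of -3.09. Slc34a2, the phosphate carrier of lung and gut, was next at -2.39 (range -3.40 to -1.42), and the 2 did not lie apart, since their ranges overlapped. Slc25a13 (-1.93), Slc25a47 (-1.90), a liver carrier, and Slc25a34 (-1.61) followed, then Slc25a39 (-1.57), Slc27a5 (-1.48) and Slc16a1 (-1.37). Of the 22 Slc25 genes 8 were higher and 13 lower than the centre, from Slc25a17 at 1.34 to Slc25a13 at -1.93.

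By family, amino acid and transmitter carriers had 11 of 25 higher and 13 lower (median -0.16). Nucleotide sugar carriers had 6 of 17 higher and 7 lower (median -0.16), sugar carriers 3 of 12 and 7 (median -0.24) and ion exchangers 4 of 17 and 9 (median -0.31). Metal ion carriers had 4 of 17 higher and 11 lower, and carriers of organic ions, bile acids and peptides 3 of 17 and 12. Vitamin, nucleoside, fatty acid and choline carriers had 2 of 17 higher and 12 lower (median -0.45). Among other transporters, P-type ATPases had 11 of 19 higher and 6 lower, with a median of 0.25.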

How the data were processed

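The deposited values are 1 log ratio per spot and array, read as log2, with blanks at some spots. The authors' scanning, background correction and normalization are not given in the sources used here, and neither are the log base and the numerator. Groups come from the labels, and a wild-type array whose title and channel label carry different numbers was numbered by its title. Each array was centred on its median. A spot was kept with a value on at least 3 of 4 arrays in each group, and spots of a gene were averaged over those with a value. The groups were fitted with limma 3.58.1 (R 4.3.3) on 16 arrays, with 1 spread per transcript shared by the 4 groups. Benjamini-Hochberg adjustment ran over 14292 transcripts, with a 2-sided threshold of 0.05. The fit was also run on simulated data with the same spread in all 4 groups. That run does not cover groups of unequal spread or arrays out of step. P-values measure only the spread between these samples, which may be technical.

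The members, families and marker lists were chosen with earlier results of these data known. Named by rule were, among genes that passed without overlap, the 6 largest rises and 6 largest falls in each line (3 and 3 between lines), up to 2 in each direction per family, the 8 highest and the 8 lowest against the reference, and some transmitter, lactate, glucose and ADP/ATP carriers whatever their values. Other members were named after their values were seen. The scaffolds Slc9a3r1 and Slc9a3r2 and 2 opposite-strand transcripts were set apart from the families their symbols point to. Alternatives covered scaling, filters, spots, array weights, the replicate number, print blocks and left-out arrays. Leaving out the out-of-step print blocks, and replicate 1 of both the wild-type and Cx43 null groups, was chosen after seeing the data. Promoters are from RefSeq (GRCm38.p6). Spots that list several genes were not used.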

Additional observations from a re-analysis of the deposited data

Results flagged for a closer look

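Among groups of 4 arrays, 13 values of the genes named lay far from the other 3 arrays of their group, out of 221 groups tested, and chance alone marks about 1 in 20. Wild-type replicate 1 was such a value for Slc16a1 (1.67), Slc25a5 (1.16) and Slc27a2 (-1.24), in each case the highest wild-type array. In the Cx43 null group, replicate 1 stood apart for Slc1a5 (-1.78) and Slc22a5 (-0.099), replicate 2 for Slc35a2 (1.36), and replicate 3 for Slc26a11 (0.108), Slc2a6 (0.594) and Slc34a3 (-0.313). In the Cx43 heterozygous group, replicate 2 stood apart for Slc27a2 (-2.94) and replicate 4 for Slc46a2 (-0.158). In the Cx32 null group, replicate 2 stood apart for Slc22a5 (-0.207) and Slc7a8 (-0.046).

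The change against wild type differed between lines for 5 genes in limma. The log2 difference between Cx43 null and Cx43 heterozygous brain was 1.18 for Slc24a5, 1.01 for Slc38a3, -0.92 for Slc34a3 and -1.15 for Slc7a11. The log2 difference between Cx43 heterozygous and Cx32 null brain was 1.63 for Slc45a1.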

How the results depend on the processing

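For counts under alternative settings or without single arrays, no share of all transcripts is given in this text. Such counts cannot be set against the whole array. With array weights 47 solute carriers passed in Cx43 null brain, 21 between Cx43 null and Cx43 heterozygous, 7 between Cx43 null and Cx32 null and 8 between Cx43 heterozygous and Cx32 null brain. On the arrays of the groups compared alone, 0 passed in Cx43 null brain (0 Slc25 genes lower), 28 in Cx32 null brain, 3 between Cx43 heterozygous and Cx32 null brain and 83 against the reference. With a value required on all 16 arrays, 6 and 5 Slc25 genes fell in Cx43 heterozygous and Cx32 null brain and 0 genes differed between Cx43 null and Cx43 heterozygous brain. With quantile scaling, and likewise with cyclic loess, 1 gene passed between Cx43 null and Cx32 null and 2 between Cx43 heterozygous and Cx32 null brain. In Cx43 heterozygous brain the median change was 0.172 with values as deposited and 0.066 with each spot on its own. There the Slc25 median was -0.41 as deposited, -0.34 with each spot on its own and -0.38 (-0.377) with at least 2 of 4 values. Without replicate 1 of both the wild-type and Cx43 null groups, 2 genes passed between Cx43 null and Cx43 heterozygous and 4 between Cx43 heterozygous and Cx32 null brain. Slc22a5 turned to 0.413 in Cx43 heterozygous and 0.239 in Cx32 null brain, both with a value on all 16 arrays and with each spot on its own, since its 2 spots differ in direction. The cause of the other changes was not tested.

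Leaving out each array in turn gave 2 to 39 calls in Cx43 null brain (0 to 9 Slc25 genes lower), 32 to 59 in Cx32 null, 0 to 8 between Cx43 null and Cx43 heterozygous, 0 to 2 between Cx43 null and Cx32 null and 1 to 3 between Cx43 heterozygous and Cx32 null brain. The median change in Cx32 null brain then ran from -0.098 to 0.026. Slc16a1, which passed in no line, turned above 0 in Cx43 heterozygous brain with array weights (0.022), without wild-type replicate 1 (0.139, in a range from -1.03 over the left-out arrays) and without replicate 1 of both groups (0.139), and in Cx43 null brain without both (0.019). For single genes, 2631 alternative values kept direction and side of the threshold, 427 lost the call, 4 gained it and 8 turned, all 8 of them those of Slc22a5 and Slc16a1.

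The replicate numbers share only a number: of 24 same-number pairs 4 had a correlation of deviations over 0.1, with a median of 0.018 beside 0.002 for other pairs, and 3 of 16 samples correlated best with their own number. With the replicate block 21, 51 and 49 genes passed in the 3 lines, and 1 between Cx43 null and Cx43 heterozygous brain. Signal over background and depth are not known from log ratios, so low spots could not be told from well measured ones.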
